A study of Mus musculus with 9 samples.

Results

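Fatty acid oxidation takes acyl chains apart to acetyl-CoA, and the genes described here are the 35 that encode its mitochondrial and peroxisomal steps in the mouse. They were chosen by gene symbol from a list of enzymes, carriers and electron acceptors, and all 35 were found among 21950 mRNA genes. The rule held no measured value, but earlier results of these data were known when the list was made. All 35 had a mean FPKM of at least 0.1, the level above which 14537 genes were tested. By their main location, 21 were counted as mitochondrial and 9 as peroxisomal. Another 3 (Eci2, Ech1 and Acad11) encode enzymes reported in both compartments, and Acsl1 and Slc27a2 encode acyl-CoA synthetases that activate or take up the chain before either route.

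Renal cortices of male C57BL/KsJ mice were sequenced at 15 weeks of age, 1 library per mouse and 3 mice per group. The control group held nondiabetic db/m littermates, which carry the db mutation of the leptin receptor gene Lepr on 1 chromosome. The dbdb and dbR groups were homozygous for db, from the line BKS.Cg-Dock7m+/+Leprdb/Nju, in which obesity and type 2 diabetes develop. From the age of 7 weeks and over 8 weeks, the dbR mice were given rosiglitazone, which activates the nuclear receptor PPARγ, by gavage at a dose of 20 mg/kg/day, and the dbdb mice were given vehicle. No lean group was given rosiglitazone, so the drug was compared with vehicle in diabetic mice only. RNA was depleted of rRNA and the strand of each RNA was kept. Levels are given as FPKM (fragments per kilobase of transcript, scaled to the mapped fragments of the library), which the authors computed for each transcript and which were summed here over the transcripts of a gene.

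In the mitochondrial route a long chain is joined to carnitine at the outer membrane, carried across the inner membrane and handed back to CoA, after which acyl-CoA dehydrogenases, a hydratase, a second dehydrogenase and a thiolase remove acetyl-CoA in repeated rounds, and the electrons pass through the electron transfer flavoprotein to the respiratory chain. Peroxisomes start on very long and branched chains, use oxidases that pass electrons to oxygen, and send shortened chains to the mitochondria as carnitine esters. The proximal tubule, which makes up most of the cortex, is known as a tissue that depends on fatty acid oxidation for its energy, and many genes of both routes are known targets of PPARα.

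The cortical identity of the libraries was checked by marker lists. The 10 proximal tubule markers summed to an FPKM of 4832 to 6233 per library. The 4 adrenal cortex markers summed to 0.597 to 0.943 in control, 1.10 to 1.38 in dbdb and 0.698 to 1.28 in dbR, nearly all of it Star, while Cyp11b1 was listed at 0 in all 9 libraries, and 4 skeletal muscle markers summed to at most 0.132. Relative depth, estimated from the steps between low values with control replicate 1 set to 1, lay between 0.915 and 1.13. Transcripts of the mitochondrial genome held 26.9% to 32.8% of the mRNA FPKM. The mRNA FPKM of a library summed to 675346 to 730057 in control, 594838 to 647995 in dbdb and 595252 to 702217 in dbR. Every dbdb sum was thus below every control sum, and the main fit did not rescale the libraries. Control replicate 3 had the highest sum, and it also held the highest control value for 24 of the 35 genes. Because the cortex was sequenced whole, fewer cells of a type and less RNA per cell cannot be told apart. Exons of Acaa1a, Acaa1b, Acad11, Acadvl, Acox3, Acsl1, Cpt1b, Crat, Crot, Echs1, Eci2, Etfb, Etfdh, Hadha and Slc27a2 overlap exons of other gene models in GENCODE, and how reads were divided there is uncertain.

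In dbdb vs. control, 16 of the 35 genes differed at an adjusted p under 0.05 (45.7%), where 26.4% of all genes tested did. The share was 32.8% among the 6003 genes whose mean FPKM reached 10, as that of 33 of the 35 genes did. Of the 16, 8 rose and 8 fell. The peroxisomal genes Crot and Ehhadh and the acyl-CoA synthetase gene Slc27a2 fell most, and the mitochondrial genes Cpt1b and Acaa2 rose most. Over all genes tested, 13.1% were called higher and 13.4% lower. The dbdb and control libraries did not overlap for 19 genes, against 42.4% of all genes, with 9 higher and 10 lower (21.2% of all genes each). The split of the members depended on the scaling, since it was 11 higher and 6 lower after quantile normalization, and 13 higher and 5 lower when genes of the mitochondrial genome were left out and the libraries scaled to 1 sum, which raised the median of all genes by 0.15 on the log2 scale. No called gene turned its direction under any of the 17 alternatives. Without control replicate 3 the counts were 7 higher and 7 lower, and without dbdb replicate 2 they were 5 higher and 8 lower.

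**Figure D1:**
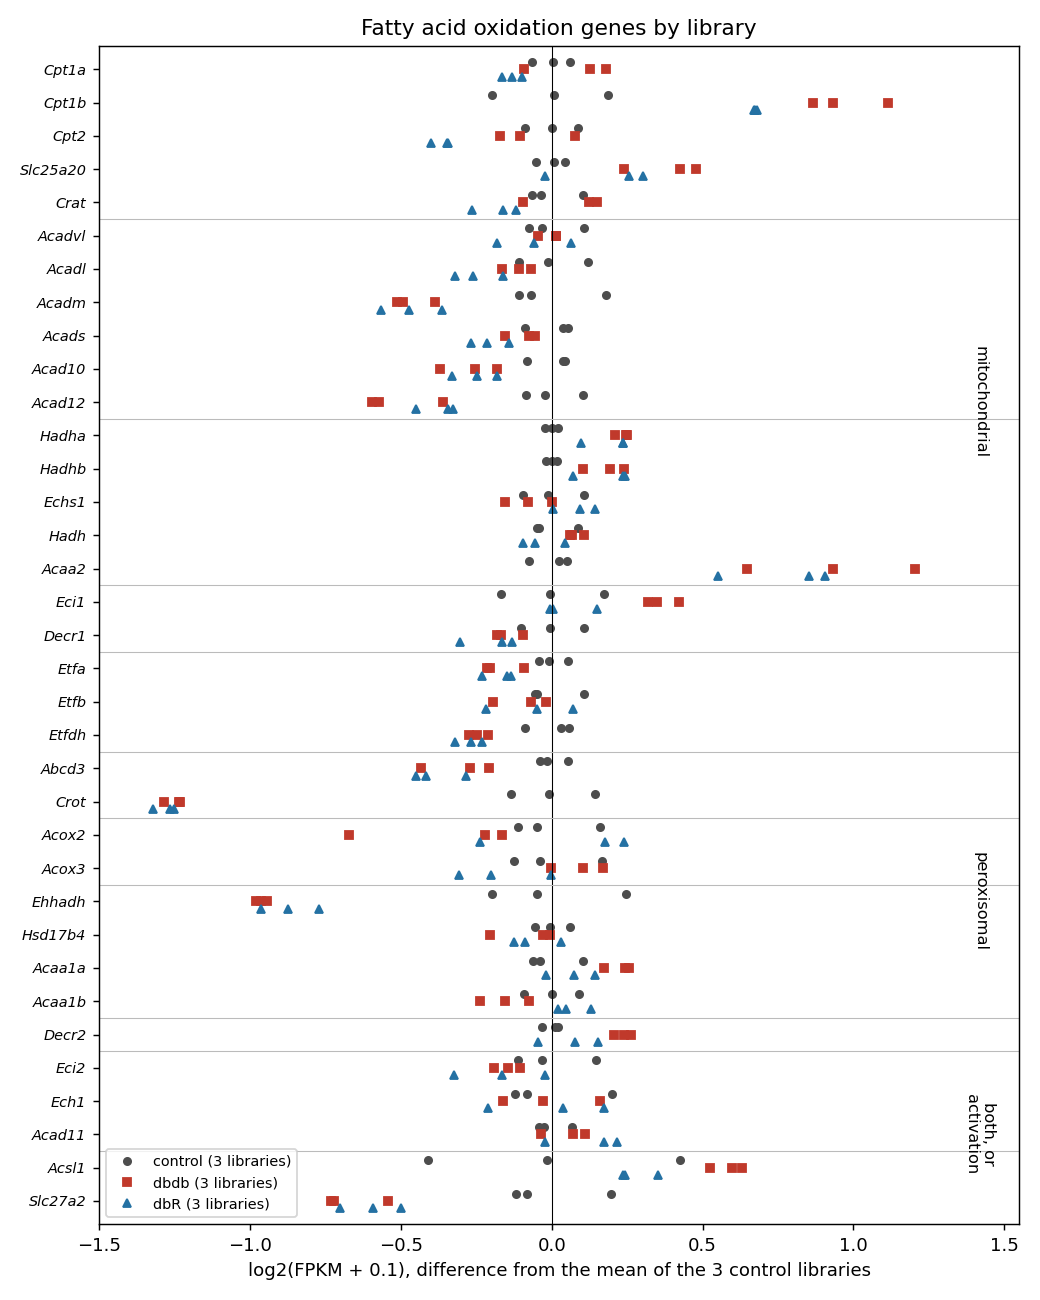
Level of each of the 35 genes in each of the 9 libraries, as the difference of log2(FPKM + 0.1) from the mean of the 3 control libraries (horizontal axis), with 1 line per gene and grey lines between functional groups. Crot and Ehhadh lie farthest to the left in dbdb and dbR, Cpt1b and Acaa2 farthest to the right, and most other genes stay within 0.5 of the control mean.

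The promoter letters of 5 genes that stand for the groups below are shown, since the treatment was an agonist of a nuclear receptor that binds DNA at AGGTCA sites. Ehhadh, Acadm and Crot fell in dbdb vs. control, and Slc25a20 and Hadha rose. The letters are from RefSeq (GRCm38.p6), are read 5′ to 3′ on the strand of the gene, end where the first annotated transcript begins or at the RefSeq start site, and carry capitals where AGGTCA occurs on either strand.
Ehhadh chr16:21787835-21788084, minus strand: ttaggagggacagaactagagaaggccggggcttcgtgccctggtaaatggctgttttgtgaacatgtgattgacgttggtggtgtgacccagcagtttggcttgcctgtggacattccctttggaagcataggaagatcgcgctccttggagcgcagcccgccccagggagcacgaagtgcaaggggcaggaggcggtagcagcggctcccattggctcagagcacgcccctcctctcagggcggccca
Acadm chr3:153944644-153944893, minus strand: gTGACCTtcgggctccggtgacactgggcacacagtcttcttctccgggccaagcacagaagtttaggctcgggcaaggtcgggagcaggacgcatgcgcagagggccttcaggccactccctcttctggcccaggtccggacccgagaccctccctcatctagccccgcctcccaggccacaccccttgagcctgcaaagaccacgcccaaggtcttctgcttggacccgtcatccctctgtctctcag
Crot chr5:8997325-8997396, minus strand: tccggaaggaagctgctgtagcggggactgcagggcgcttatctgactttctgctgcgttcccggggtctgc
Slc25a20 chr9:108661886-108662087, plus strand: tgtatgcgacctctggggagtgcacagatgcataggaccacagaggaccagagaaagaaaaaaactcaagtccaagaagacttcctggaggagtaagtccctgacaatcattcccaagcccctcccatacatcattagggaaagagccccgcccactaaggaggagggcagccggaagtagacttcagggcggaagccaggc
Hadha chr5:30155163-30155230, minus strand: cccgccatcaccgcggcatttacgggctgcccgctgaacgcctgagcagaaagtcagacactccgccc
Among these 5 stretches only that of Acadm held the hexamer, as TGACCT on the strand of the gene. In the 250 bases before the start site, AGGTCA occurred on either strand in 14.0% of 32851 RefSeq mouse windows and in 5 of the 33 windows of the 30 genes that had one, those of Acadm, Acadvl, Cpt1a, Echs1 and Slc27a2. The direct repeat of AGGNCA, any base, AGGNCA, which was searched in the same way and may contain the hexamer, occurred in 0.338% of all windows and in 0 of the 33. A match is a string of letters in this window and no measured binding site.

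Of the carnitine shuttle, 2 of 5 genes rose in dbdb vs. control and 0 fell, where 13.1% of all genes rose and 13.4% fell. Cpt1b encodes the carnitine palmitoyltransferase 1 of muscle and brown fat, which joins the chain to carnitine. Its FPKM was 3.62, 2.75 and 3.18 in the control libraries, 5.85, 6.13 and 6.97 in dbdb and 5.11, 5.14 and 5.10 in dbR. All 6 libraries of diabetic mice were above all 3 controls, with a log2 fold change of 0.97 (SE 0.11, adjusted p = 0.000222) in dbdb vs. control and of 0.68 (SE 0.11, adjusted p = 0.00183) in dbR vs. control. The level stayed far below that of Cpt1a, the form of liver and kidney, whose FPKM lay between 113 and 144 in all libraries and which passed in neither comparison. Brown fat cells are known to express Cpt1b, and the part of fat cells in its values was not tested. The 9 adipocyte markers summed to an FPKM of 0.351 to 3.61 in control, 0.0769 to 0.126 in dbdb and 0.0767 to 0.701 in dbR, and Ucp1, the marker of brown fat, was listed at 0 in all control and dbR libraries and at 0, 0.0769 and 0.0501 in dbdb. Exons of Cpt1b overlap those of the gene model Gm44502 on the same strand, and the sharing of reads between them is uncertain.

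Slc25a20, the carnitine-acylcarnitine translocase of the inner membrane, had an FPKM of 24.1, 25.8 and 25.2 in control, 29.6, 34.9 and 33.7 in dbdb and 24.7, 29.9 and 30.9 in dbR. Every dbdb library was above every control library, and the dbR libraries lay across both ranges. Against control, the dbdb group had a log2 fold change of 0.38 (SE 0.09, adjusted p = 0.0138), and without dbdb replicate 2 the adjusted p was 0.0533. Cpt2, which hands the chain back to CoA, had 57.4, 61.2 and 65.0 in control, 54.2, 64.4 and 56.8 in dbdb and 46.3, 48.0 and 48.1 in dbR. All 3 dbR libraries stood below the controls while dbdb overlapped them, and Cpt2 fell by 0.36 on the log2 scale in dbR vs. control (SE 0.07, adjusted p = 0.00578). Crat, which buffers acetyl-CoA as acetylcarnitine, ranged from 31.3 to 41.8 and was called in no comparison.

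The 6 mitochondrial acyl-CoA dehydrogenase genes, whose products take the first electrons from the chain, had 3 of 6 lower and 0 higher in dbdb vs. control, beside 13.4% lower and 13.1% higher over all genes. Acadm, the medium-chain enzyme and the most abundant of them, had an FPKM of 360, 350 and 428 in control, 289, 265 and 268 in dbdb and 256, 272 and 294 in dbR. Both diabetic groups lay below every control library. Acadm fell by 0.47 on the log2 scale in dbdb vs. control (SE 0.09, adjusted p = 0.00421) and by 0.47 in dbR vs. control (SE 0.09, adjusted p = 0.0044).

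Acad10 and Acad12 are neighbours on chromosome 5 that encode less studied members of the family. Acad10 had an FPKM of 30.1, 27.7 and 30.0 in control, 25.8, 24.5 and 22.6 in dbdb and 25.8, 23.2 and 24.6 in dbR, and Acad12 had 5.0, 5.71 and 5.23, then 4.11, 3.53 and 3.48, then 4.21, 3.86 and 4.15. For both genes the controls lay above all other libraries. Acad12 fell by 0.51 (SE 0.09, adjusted p = 0.00379) and Acad10 by 0.27 (SE 0.07, adjusted p = 0.0176) on the log2 scale in dbdb vs. control. Their coding sequences agree at 93.4% of 1653 aligned bases, so the division of reads between them is uncertain. The call of Acad10 was lost without control replicate 1, without control replicate 3, without dbdb replicate 3 and without the genes of the mitochondrial genome (Acad10 then at -0.11, adjusted p = 0.278).

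The long-chain enzyme Acadl had an FPKM of 102, 109 and 119 in control, 102, 98 and 105 in dbdb and 91.6, 88.0 and 98.2 in dbR. Acads, the short-chain enzyme, had 66.3, 60.1 and 65.5 in control, 57.4, 60.7 and 61.5 in dbdb and 58.0, 53.1 and 55.0 in dbR. For both genes dbdb overlapped the controls and dbR did not. They fell in dbR vs. control, Acadl by 0.25 (SE 0.07, adjusted p = 0.0283) and Acads by 0.21 (SE 0.06, adjusted p = 0.0324) on the log2 scale. These calls depended on the scaling and on the library left out: quantile normalization, scaling to the 75th percentile, scaling without the genes of the mitochondrial genome and leaving out control replicate 3 or dbR replicate 2 each removed both, and in all Acadl lost its call under 7 and Acads under 8 of the 17 alternatives. Acadvl, which starts on very long chains at the inner membrane, lay between 109 and 134 in all 9 libraries and was called nowhere.

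Of the 5 genes from hydration to thiolysis, 2 rose in dbdb vs. control and 0 fell (13.1% and 13.4% of all genes). Acaa2, the thiolase that releases acetyl-CoA in the matrix, had an FPKM of 115, 113 and 105 in control, 256, 212 and 174 in dbdb and 163, 200 and 208 in dbR. All diabetic libraries exceeded all controls, with log2 fold changes of 0.93 (SE 0.13, adjusted p = 0.000944) in dbdb vs. control and 0.77 (SE 0.13, adjusted p = 0.00285) in dbR vs. control. The dbdb libraries were more spread out (SD 41.1) than the controls (SD 4.98).

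Hadha and Hadhb encode the subunits of the trifunctional protein and face away from each other on chromosome 5, with 272 bases between their RefSeq start sites. Hadha had an FPKM of 56.1, 57.0 and 57.8 in control, 67.6, 66.0 and 67.8 in dbdb and 60.9, 67.2 and 67.2 in dbR, and it rose in dbdb vs. control by a log2 fold change of 0.24 (SE 0.05, adjusted p = 0.0106). Hadhb had 128, 131 and 130, then 148, 139 and 153, then 136, 153 and 153. For both genes no diabetic library overlapped the controls. The log2 fold change of Hadhb was 0.18 (SE 0.06, adjusted p = 0.0618) and missed the threshold, which it passed under 3 other scalings. In dbR vs. control Hadha was called at 0.19 (SE 0.05, adjusted p = 0.0291), a call lost under 7 of the 17 alternatives. These were the replicate block, the fit to only the 6 libraries of the comparison, and the fits without control replicate 1, 2 or 3 or dbR replicate 2 or 3. Echs1 and Hadh, the short-chain hydratase and dehydrogenase, ranged from 126 to 155 and from 269 to 310 and were called nowhere.

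Enzymes that rearrange double bonds include Eci1 and Decr1. Eci1, the mitochondrial enoyl-CoA isomerase, had an FPKM of 76.8, 86.0 and 97.2 in control, 115, 108 and 110 in dbdb and 86.5, 85.9 and 95.8 in dbR. The dbdb libraries stood above all others, and the dbR libraries lay within the control range. Eci1 rose in dbdb vs. control by a log2 fold change of 0.36 (SE 0.08, adjusted p = 0.0116). Decr1, the mitochondrial dienoyl-CoA reductase, lay between 53.6 and 71.3 and was called in no comparison.

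Of the 3 genes that pass electrons on to the respiratory chain, Etfdh fell. This ubiquinone oxidoreductase had an FPKM of 85.9, 95.2 and 93.2 in control, 78.9, 76.9 and 75.5 in dbdb and 73.2, 75.9 and 77.8 in dbR, so that all controls were above all other libraries. The log2 fold change was -0.25 (SE 0.06, adjusted p = 0.0104) in dbdb vs. control and -0.27 (SE 0.06, adjusted p = 0.00664) in dbR vs. control. The call of Etfdh in dbdb vs. control was lost after quantile normalization (-0.13) and without the genes of the mitochondrial genome in the scaling (-0.09), and the latter also ended its call in dbR vs. control (adjusted p = 0.0505). Etfa, a subunit of the flavoprotein, had a log2 fold change of -0.17 in both comparisons (adjusted p = 0.062 and 0.0649), with no overlap with the controls. Etfb, the other subunit, ranged from 357 to 447 and overlapped between the groups.

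**Figure D2:**
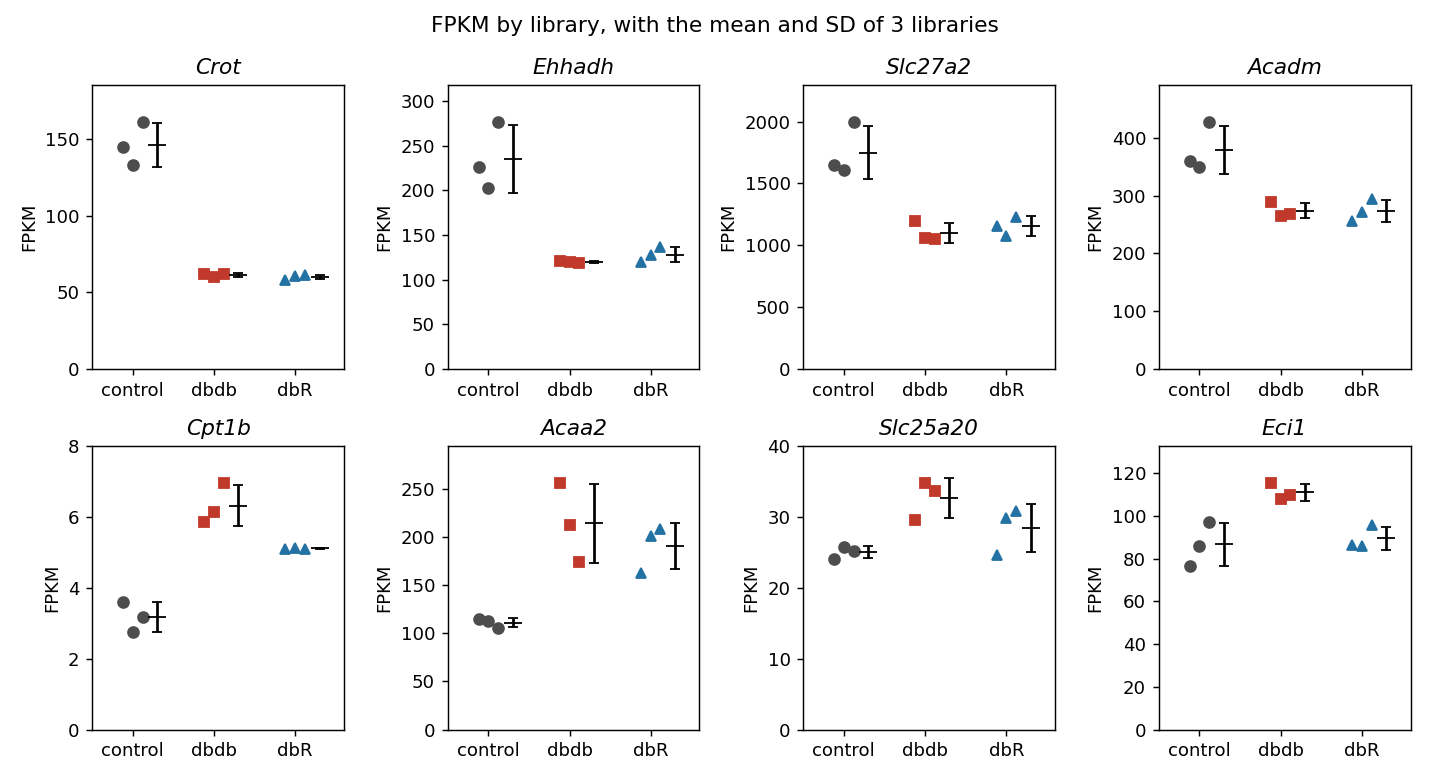
FPKM of 8 of the genes in each library (points, 3 per group) with the mean and SD of each group (bars), each panel with its own axis from 0. Crot, Ehhadh, Slc27a2 and Acadm lie lower in dbdb and dbR than in control, Cpt1b and Acaa2 lie higher, and Slc25a20 and Eci1 are highest in dbdb.

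Among the 9 peroxisomal genes, 2 rose and 3 fell in dbdb vs. control, against 13.1% and 13.4% of all genes. Crot encodes the carnitine octanoyltransferase that readies shortened chains for export. Its FPKM was 145, 133 and 161 in control, 62.0, 59.8 and 62.1 in dbdb and 58.3, 60.7 and 61.3 in dbR. No diabetic library exceeded 62.1 and no control lay below 133, and Crot fell by 1.25 on the log2 scale in dbdb vs. control (SE 0.07, adjusted p = 7.55e-06) and by 1.28 in dbR vs. control (SE 0.07, adjusted p = 6.09e-06). Crot fell from a mean of 146 to a mean of 61.3, and its 3 dbdb values differed by an SD of 1.28. Abcd3, the membrane transporter that brings acyl-CoA in, had 119, 127 and 121 in control, 90.8, 106 and 102 in dbdb and 91.8, 101 and 89.7 in dbR. It too fell in both comparisons, by 0.30 (SE 0.07, adjusted p = 0.0121) and by 0.38 (SE 0.07, adjusted p = 0.00409) on the log2 scale. In dbdb vs. control its call was lost after quantile normalization (-0.20) and without the genes of the mitochondrial genome (-0.14, adjusted p = 0.214).

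Ehhadh, the bifunctional enzyme for straight chains, had an FPKM of 226, 203 and 277 in control, 121, 120 and 118 in dbdb and 120, 127 and 137 in dbR. The highest diabetic library lay well below the lowest control. Ehhadh fell by 0.96 (SE 0.10, adjusted p = 0.000168) in dbdb vs. control and by 0.87 (SE 0.10, adjusted p = 0.000319) in dbR vs. control on the log2 scale. Hsd17b4, the bifunctional enzyme for branched chains and bile acid intermediates, lay between 93.9 and 113 and was called nowhere. Both enzymes do the same middle steps of the peroxisomal route.

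Acaa1a and Acaa1b encode the peroxisomal thiolases. Acaa1a had an FPKM of 52.8, 52.0 and 58.3 in control, 64.8, 64.2 and 61.3 in dbdb and 53.5, 57.1 and 59.9 in dbR, with dbdb above all controls, and rose by a log2 fold change of 0.22 in dbdb vs. control (SE 0.06, adjusted p = 0.0285). Acaa1b had 120, 128 and 136, then 115, 121 and 108, then 132, 130 and 140, and its log2 fold change of -0.16 in dbdb vs. control did not pass (adjusted p = 0.113). Their coding sequences agree at 96.5% of 1272 bases, and exons of Acaa1a overlap those of Myd88 on the other strand, so both values rest on how reads were divided. The call of Acaa1a was lost when control replicate 1 or 2 or dbdb replicate 1 or 2 was left out.

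Decr2, the peroxisomal dienoyl-CoA reductase, had an FPKM of 32.4, 32.1 and 31.3 in control, 37.7, 36.9 and 38.3 in dbdb and 30.9, 35.5 and 33.7 in dbR. The dbdb libraries formed a tight group above all others, and Decr2 rose by a log2 fold change of 0.24 in dbdb vs. control (SE 0.06, adjusted p = 0.0167, and 0.053 without control replicate 3). The oxidase genes Acox2 and Acox3, which act on branched chains, ranged from 12.8 to 24.2 and from 105 to 146, and neither was called in a comparison.

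Ahead of both routes, Slc27a2 had the highest level of the 35 genes. It encodes a transporter and very long chain acyl-CoA synthetase of the proximal tubule and liver. Its FPKM was 1646, 1605 and 1997 in control, 1196, 1056 and 1048 in dbdb and 1155, 1071 and 1232 in dbR. No diabetic library reached the lowest control. Slc27a2 fell by 0.66 (SE 0.11, adjusted p = 0.00195) in dbdb vs. control and by 0.60 (SE 0.11, adjusted p = 0.00369) in dbR vs. control on the log2 scale. Acsl1, the long-chain synthetase that feeds the carnitine shuttle, had 39.6, 53.8 and 30.1 in control, 57.6, 62.0 and 60.6 in dbdb and 51.1, 47.4 and 47.2 in dbR. Its dbdb libraries were above the controls, which were themselves widely spread, and the log2 fold change was 0.58 (SE 0.16, adjusted p = 0.0249). That call was lost without control replicate 1, without dbdb replicate 2, without dbdb replicate 3, in the fit to 6 libraries and with the highest transcript alone. None of Eci2, Ech1 and Acad11, the 3 genes of both compartments, was called in any comparison, and their levels lay between 63 and 87.4, 271 and 360, and 102 and 122.

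The whole routes were also set side by side, as a description without a test. The FPKM of the 9 peroxisomal genes summed to 921 to 1066 in control, 726 to 778 in dbdb and 723 to 785 in dbR, so that neither diabetic group overlapped the control group. The 21 mitochondrial genes summed to 2498 to 2748, 2482 to 2670 and 2307 to 2600, and these ranges overlapped. Both sums were left unscaled, although the mRNA FPKM of every dbdb library was below that of every control library. Whether the mitochondrial ranges overlap after scaling to the mRNA FPKM of the library was not tested. Within the peroxisomal sum, Crot and Ehhadh had means of 146 and 235 in control and of 61.3 and 120 in dbdb. In dbdb vs. control the median log2 fold change was -0.07 over the mitochondrial and -0.16 over the peroxisomal genes, beside -0.003 over all genes tested. The mitochondrial median was -0.022 without control replicate 3 and -0.016 without dbdb replicate 1. After quantile normalization the medians were 0.05 and -0.03, beside 0.0005 over all genes. Without the genes of the mitochondrial genome they were 0.09 and 0.002, beside 0.15 over all genes, so both stayed below the median of all genes there.

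**Figure D3:**
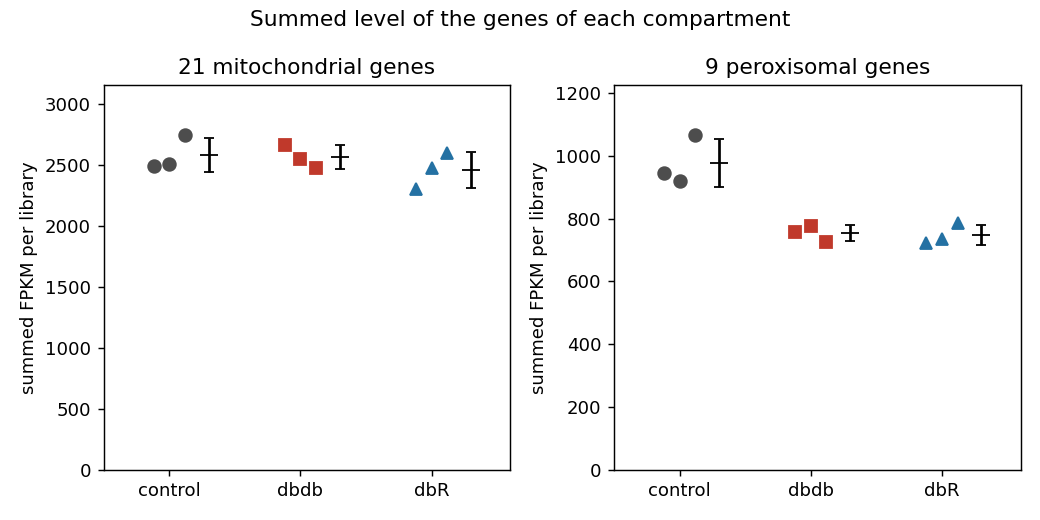
Summed FPKM of the 21 mitochondrial and the 9 peroxisomal genes in each library (points) with the mean and SD of 3 libraries per group (bars), each axis from 0. The peroxisomal sum is at least 921 in every control library and at most 785 in every other library, while the mitochondrial sums overlap between the groups. The sums are not scaled to the mRNA FPKM of the library, which was lower in dbdb than in control.

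The comparison of dbR with dbdb asked what rosiglitazone changed in diabetic mice. With limma at an adjusted p under 0.05, 0 of the 35 genes were called, where 0.743% of all genes tested were, and 0.933% of those whose mean FPKM reached 10. None was called under any of the 17 alternatives. At an unadjusted p under 0.05 there were 11 of 35, 3 with a higher and 8 with a lower level in dbR, where 17.5% of all genes reached it. The libraries did not overlap for 12 of the 35 genes, against 22.7% of all genes, with 2 genes higher (10.7% of all genes) and 10 lower (11.9%).

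The log2 fold changes in dbR vs. dbdb lay between -0.31 (Eci1) and 0.41 (Acox2). The carnitine shuttle held 4 of the 11 genes, all with lower values in dbR and without overlap. Cpt2 had a log2 fold change of -0.30 (SE 0.07, adjusted p = 0.0834), Cpt1b of -0.30 (SE 0.11, adjusted p = 0.201), Crat of -0.24 (SE 0.08, adjusted p = 0.165) and Cpt1a of -0.20 (SE 0.07, adjusted p = 0.198). The value of Eci1 was -0.31 (SE 0.08, adjusted p = 0.105). Peroxisomal genes went both ways, with Acaa1b at 0.22 (adjusted p = 0.137) and Acox2 at 0.41 (adjusted p = 0.213), and with Acox3 at -0.26 (adjusted p = 0.202), Decr2 at -0.17 (adjusted p = 0.175) and Acaa1a at -0.16 (adjusted p = 0.243). Echs1 was the only other gene, at 0.16 (adjusted p = 0.28).

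The 95% intervals of dbR vs. dbdb were compared with 0 and with the reversed difference for the 16 genes called in dbdb vs. control, as a description only, since both comparisons use the dbdb libraries. The interval held 0 for 12 of the 16 and lay below 0 for Cpt1b, Eci1, Acaa1a and Decr2. The full difference of dbdb vs. control with its sign turned lay inside the interval for 5 genes (Slc25a20, Eci1, Acaa1a, Decr2 and Acsl1) and outside it for 11. For the 5 genes with the largest differences in dbdb vs. control, the interval ran from -0.18 to 0.13 for Crot, from -0.54 to -0.05 for Cpt1b, from -0.13 to 0.32 for Ehhadh, from -0.46 to 0.14 for Acaa2 and from -0.18 to 0.31 for Slc27a2. For Acsl1 it ran from -0.67 to 0.06, for Slc25a20 from -0.41 to 0.004 and for Eci1 from -0.50 to -0.12.

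**Figure D4:**
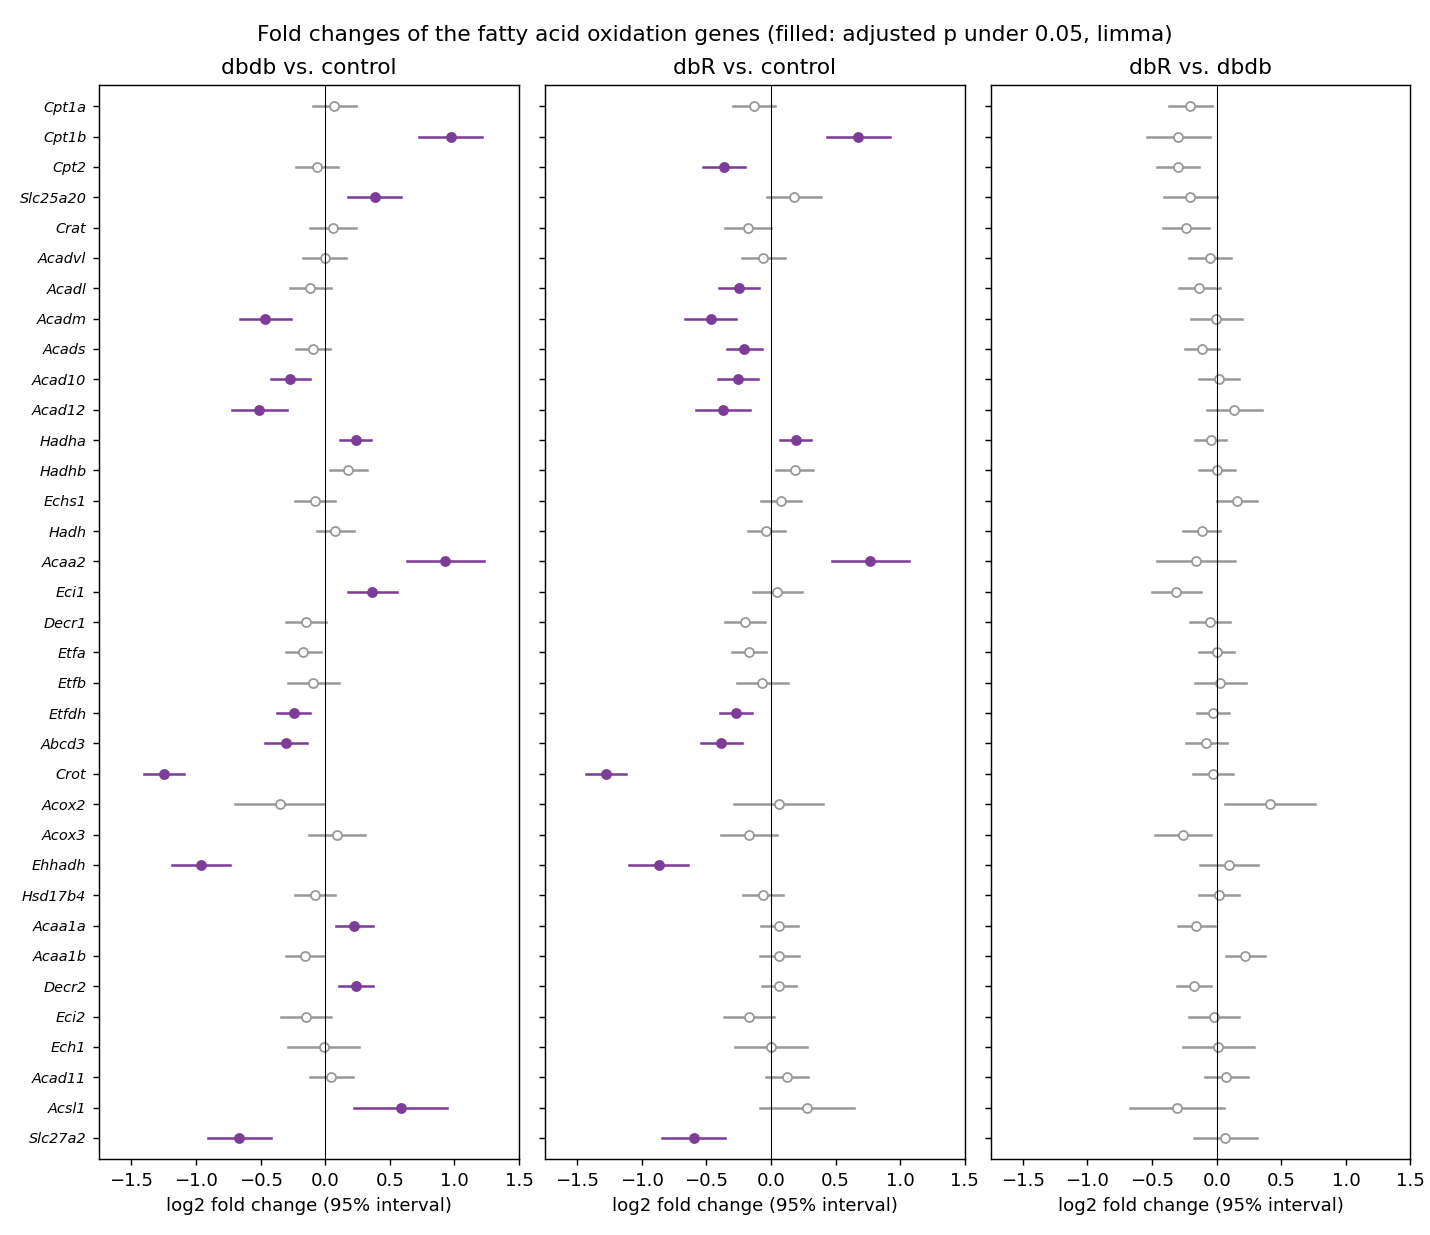
Log2 fold change of each gene (point) with its 95% interval (line) in dbdb vs. control, dbR vs. control and dbR vs. dbdb, from limma. Filled points passed an adjusted p under 0.05. There are 16, 14 and 0 of them, and the comparisons share libraries.

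In dbR vs. control, which shares the control libraries with dbdb vs. control, 14 of the 35 genes were called (40%), where 24.1% of all genes tested were, and 29.8% of those whose mean FPKM reached 10. Of these, 3 rose (Cpt1b, Acaa2 and Hadha, against 12.3% of all genes) and 11 fell (against 11.8%), among them 5 of the 6 mitochondrial acyl-CoA dehydrogenase genes. The libraries did not overlap for 19 genes, against 41.9% of all genes, with 4 higher (20.8% of all genes) and 15 lower (21.1%). Here too the split moved with the scaling, to 4 higher and 8 lower at the 75th percentile, 6 and 8 after quantile normalization, and 8 and 6 without the genes of the mitochondrial genome. The median log2 fold change of all genes was 0.04, -0.007 and 0.09 under these scalings, beside -0.001 in the main fit. Without dbR replicate 1 it was 5 and 10, and without dbR replicate 2 it was 2 and 7. The 11 that fell were, beside the genes already given, Acad10 by 0.25 (SE 0.07, adjusted p = 0.0241) and Acad12 by 0.37 (SE 0.09, adjusted p = 0.018) on the log2 scale. The call of Acad10 was lost under 7 of the 17 alternatives (the 3 scalings and without control replicate 1, control replicate 3, dbR replicate 2 or dbR replicate 3) and that of Acad12 under 3 (without the genes of the mitochondrial genome, control replicate 2 or dbR replicate 2), with adjusted p-values of up to 0.154 and 0.0958.

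The rest of the pathway was read from a list of 38 other genes of fatty acid activation, uptake and oxidation, of which 37 were tested. In dbdb vs. control 8 rose and 10 fell (48.6%, against 26.4% of all genes tested). In dbR vs. dbdb 0 were called, against 0.743%, and 15 had an unadjusted p under 0.05, which 17.5% of all genes had. In dbR vs. control 6 rose and 11 fell (45.9%, against 24.1%). The genes with the largest fold changes were Acsm3, a medium-chain acyl-CoA synthetase, Amacr, the racemase that prepares branched chains for peroxisomal oxidation, Acsf2, an acyl-CoA synthetase, and Hacl1, the peroxisomal lyase of alpha oxidation. Acsm3 had an FPKM of 127, 116 and 247 in control and between 7.44 and 11.2 in the diabetic libraries, with a log2 fold change of -3.88 (SE 0.23, adjusted p = 1.03e-05) in dbdb vs. control. Amacr fell from between 103 and 149 in control to between 38.2 and 48.3 in dbdb, a log2 fold change of -1.52 (SE 0.13, adjusted p = 4.95e-05). Acsf2 (1.41, SE 0.15, adjusted p = 0.000174) and Hacl1 (1.11, SE 0.10, adjusted p = 5.84e-05) rose. The median of the list was -0.11, beside -0.003 over all genes tested. In dbR vs. control the same measure was -4.23 for Acsm3, -1.47 for Amacr, 1.16 for Hacl1 and 0.87 for Acss1, which makes acetyl-CoA from acetate in mitochondria.

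Of 21 genes of peroxisome assembly and matrix upkeep, 1 rose and 4 fell in dbdb vs. control (23.8%, against 26.4% of all genes tested), with a median log2 fold change of -0.08. Pex11a, which acts in the division of peroxisomes, rose by a log2 fold change of 0.49 (SE 0.10, adjusted p = 0.0076). Its FPKM was 15.1 to 15.9 in control, 18.6 to 24.9 in dbdb and 14.7 to 17.8 in dbR. Pex2, a ligase of the import machinery, fell by 0.38 (SE 0.06, adjusted p = 0.000985) on the log2 scale, and catalase (Cat) by 0.31 (SE 0.08, adjusted p = 0.0208). In dbR vs. dbdb 0 of the 21 were called (3 at an unadjusted p under 0.05, or 14.3%, against 17.5% of all genes). In dbR vs. control 3 fell (14.3%, against 24.1% called over all genes), Pex11g by 0.41 (SE 0.10, adjusted p = 0.0174), Pex2 by 0.32 (SE 0.06, adjusted p = 0.00265) and Lonp2 by 0.26 (SE 0.05, adjusted p = 0.00456) on the log2 scale.

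Markers of other cell types moved between the same groups, and their part in the values above was not tested. Over all genes, 13.1% were called higher and 13.4% lower in dbdb vs. control. The shares in dbR vs. control were 12.3% and 11.8%, and 0.743% were called in either direction in dbR vs. dbdb. The 10 markers of the loop, distal tubule and collecting duct summed to an FPKM of 588 to 697 in control, 876 to 1188 in dbdb and 924 to 1001 in dbR. Of them 8 were called higher in dbdb vs. control, 9 higher in dbR vs. control and 1 higher in dbR vs. dbdb, and 0 were called lower. The 10 proximal tubule markers summed to 5423 to 6224, 4832 to 6071 and 5921 to 6233 in the same order of groups, with 2 higher and 2 lower in dbdb vs. control, 3 higher and 2 lower in dbR vs. control and 0 called in dbR vs. dbdb. The 5 endothelial markers summed to 101 to 110, 74.3 to 81.3 and 105 to 125, with 4 lower in dbdb vs. control, 3 higher in dbR vs. dbdb and 1 higher in dbR vs. control. The 5 macrophage and T cell markers summed to 27.7 to 32.5, 13.1 to 21.2 and 17.9 to 23.6, with 3 lower in dbdb vs. control, 1 lower in dbR vs. control and 0 called in dbR vs. dbdb. The 5 podocyte markers summed to 73.4 to 83.8, 86.0 to 92.3 and 79.4 to 96.6, with 2 higher in dbdb vs. control, 2 higher in dbR vs. control and 0 called in dbR vs. dbdb. The 5 fibroblast and mesangial markers summed to 23.8 to 36.4, 19.3 to 28.1 and 32.3 to 42.5, with 1 lower in dbdb vs. control, 1 higher in dbR vs. dbdb and 2 higher in dbR vs. control.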

How the data were processed

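Total RNA of 1 renal cortex per mouse, 3 mice per group, was depleted of rRNA and sequenced as strand-specific paired reads. Per the labels and the paper, the authors aligned reads to GRCm38.p2 with TopHat2 (2.0.9) and deposited FPKM per transcript from Cufflinks (2.1.1). Whether quantification used the strand is not given in the sources used here. lncRNA values were not used here.

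FPKM were summed per gene. log2(FPKM + 0.1) of the 14537 genes whose mean FPKM was 0.1 or more was fitted with limma (3.58.1, R 4.3.3; python 3.11.15) in 1 model over 9 libraries, with a variance trend, two-sided tests and Benjamini-Hochberg adjustment over all genes. Genes were called at an adjusted p under 0.05. The fit was tested on simulated data. FPKM carry no counts, so no count test was run, and fold changes of low genes are understated. Coordinates come from GENCODE M21.

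Groups came from the labels. Members and lists were chosen with earlier results of these data known. All members are named, and of the context lists up to 4 called genes with the largest fold change per comparison. Of the called genes of these lists, 1 that this rule would name is not reported here.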

Additional observations from a re-analysis of the deposited data

How the results depend on the processing

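With 3 mice per group and no counts in the FPKM values, a missed threshold does not show equal levels. Of the called genes, 9 of 16 in dbdb vs. control and 8 of 14 in dbR vs. control were called under each of the 17 alternatives (pseudocount, filter, scaling, fit, transcript choice and each library left out), and no called gene reversed. The uncalled Acaa1b in dbdb vs. control reached 0.00223 without the genes of the mitochondrial genome. The cause of the following changes was not tested.

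Without the genes of the mitochondrial genome, the counts in dbdb vs. control were 13 higher and 5 lower and the median log2 fold changes 0.0919 (mitochondrial) and 0.00223 (peroxisomal), the mitochondrial median in dbR vs. dbdb was -0.117, and in dbR vs. control the counts were 8 higher and 6 lower with a mitochondrial median of -0.0364. Quantile normalization gave medians of 0.0516 (mitochondrial) and -0.0340 (peroxisomal) in dbdb vs. control, mitochondrial medians of -0.101 in dbR vs. dbdb and -0.0855 in dbR vs. control, and 6 genes higher in dbR vs. control. Scaling to the 75th percentile gave a mitochondrial median of -0.0845 in dbR vs. control, beside 0.0436 over all genes.

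With 1 library left out, 5 to 7 genes were higher and 7 to 9 lower in dbdb vs. control (5 higher without dbdb replicate 2), with mitochondrial medians of -0.0679 to -0.0156 and peroxisomal medians of -0.201 to -0.111. In dbR vs. control, 2 to 5 were higher (5 without dbR replicate 1) and 7 to 10 lower (7 without dbR replicate 2), with mitochondrial medians of -0.163 to -0.101. In dbR vs. dbdb the mitochondrial median ran from -0.109 to -0.0207.

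All genes called in dbR vs. dbdb numbered 108, and 31 without a filter, 166 at a mean FPKM of at least 1, 224 at the 75th percentile, 234 after quantile normalization, 22 with 6 libraries, 166 with robust empirical Bayes, 49 with the highest transcript and 2 to 141 with a library left out. Samples of different groups with the same replicate number did not deviate together (correlations of -0.17 to 0.06 over 9 pairs, and -0.11 to 0.17 over 18 pairs of different numbers). The labels name no pairs of mice, and with 3 libraries per group these correlations cannot exclude a pairing. With replicate number as a block, 8 genes were higher and 8 lower in dbdb vs. control, 0 were called in dbR vs. dbdb (23 of all genes) and 2 were higher and 10 lower in dbR vs. control, where Hadha and Acads lost their calls.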
